A study of Bos taurus with 4 samples.

Results

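Bovine intramuscular preadipocytes, the fat cell precursors of the depot that lies within skeletal muscle, were compared between 2 states: cells kept for 6 days in adipogenic medium with a retinoid, and cells harvested when adipogenic stimulation began. The samples were taken by their labelled group and by no measured value. They comprised 9 of the series' 12 arrays, namely 3 arrays of cells given all-trans retinoic acid (ATRA), 3 arrays of cells given 9-cis retinoic acid (9cRA) and 3 arrays of untreated day 0 cells. Both compounds were used at 1 µM. Confluent cultures had been moved to Dulbecco's modified Eagle's medium to which 10% serum of fetal calves, 0.25 µM dexamethasone (a glucocorticoid), 50 ng/mL of insulin, 10 mM acetic acid, 5 mM octanoate and antibiotics had been added. This medium was renewed every 2 days. The remaining 3 arrays, of untreated cells after 6 days in that medium (day 6 control), enter the fit and are given beside the results. Retinoid-treated cells differed from day 0 cells by the retinoid, the medium and 6 days of culture, and these cannot be told apart in this comparison. The labels give no breed, age or sex and do not say how many animals or cultures the RNA came from.

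The labels list 1 sample per group, to which 3 array files belong, so n counts arrays. The p-values therefore reflect the variation among arrays alone, and this may be technical. Levels are the log2 of the spot signal minus the log2 of the array's 75th percentile, so a level of 0 is the signal at that percentile. Differences are in log2 units with the standard error (SE), and p-values are those of limma adjusted over all genes tested by the Benjamini-Hochberg method. The share of spots well above background was 64.8% to 74.0% per array, the median SD of a gene was 0.06 (day 0), 0.08 (ATRA) and 0.09 (9cRA), and 0 spots were saturated. The arrays lay on 3 slides. All 3 day 0 arrays shared slide 1 with day 6 control array 1. The other day 6 control arrays were on slide 2 beside ATRA arrays 1 and 2, and slide 3 carried the 3 9cRA arrays plus ATRA array 3. No slide held both day 0 and retinoid arrays, so no value within a slide exists for this comparison. A fit with slide as a fixed block reaches it only through the day 6 control arrays and rests on day 6 control array 1, which stood apart with 103 non-uniform spots and the lowest share of spots well above background. Values from that fit are given beside the gene or list where it ended a call or turned the direction of a list's median.

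Retinoic acids are acid forms of vitamin A that act through nuclear receptors. ATRA is a ligand of the retinoic acid receptors (RARs), and 9cRA, its isomer with another geometry at a single double bond, binds RARs and also the retinoid X receptors (RXRs). Receptor pairs of RAR and RXR bind DNA near target genes, among them genes that store, carry and degrade retinoids. Adipogenic differentiation of preadipocytes is driven by C/EBP factors and the nuclear receptor PPARG, which raise genes of lipid uptake and storage such as FABP4. Retinoic acid given early is known to hold back this programme in cultured preadipocytes.

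Most genes on the array differed between the 2 states. Of 17622 genes tested, 13190 passed an adjusted p of 0.05 (74.8%), with 7190 higher (40.8%) and 6000 lower (34.0%) in retinoid-treated cells. A difference of at least 2-fold was also reached by 3646 genes (20.7%), 2163 of them higher (12.3%) and 1483 lower (8.42%). The 6 retinoid arrays all lay above the 3 day 0 arrays for 39.0% of genes and all below them for 33.0%. The median difference over all genes was 0.06. The split into higher and lower calls moved with the scaling, from 54.5% higher to 44.9% higher when arrays were scaled to their median, which shifted the median of all genes to -0.07. With slide as a fixed block 8151 genes were called and most were lower, 3912 higher (48.0%) and 4239 lower. Counts of list members below are to be read against the shares of all genes, 40.8% higher and 34.0% lower against day 0, and every list count refers to its members that were tested. The fit called 10987 genes (62.3%) for the day 6 control against day 0, with 31.0% higher and 31.3% lower, and 9222 genes (52.3%) for retinoid against the day 6 control, with 28.2% higher and 24.2% lower. Counts of members in either of those contrasts are to be read against its own shares. Taken alone against day 0, ATRA had 12599 called genes (71.5%) and 9cRA 12575 (71.4%).

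ATRA and 9cRA were compared at the same dose and day, as a single pair. Of 17622 genes, 21 differed between them at an adjusted p under 0.05 (0.119%), and 94.6% of genes had a 95% interval of the difference that lay within -1 to 1 on the log2 scale, so that a difference of more than 2-fold lay outside the interval for those genes. The interval reached a median of 0.19 to either side of the difference. ATRA arrays 1 and 2 lay on another slide than the 9cRA arrays, and the count moved when single arrays were left out. It was 7, 7 and 8 without day 0 array 1, 2 or 3, 10 and 1 without ATRA array 1 or 2, and 18 to 22 without 9cRA array 1 or 3. It was 0 without ATRA array 3 or without 9cRA array 2, where limma gave 1790 and 1101 genes an unadjusted p under 0.05. Among the 14 of the 21 genes with a symbol, EGR1, an immediate early transcription factor, was at 3.05 ± 0.07 with ATRA and 4.09 ± 0.15 with 9cRA (SD, n = 3), and day 0 cells were at 3.57. The difference of ATRA minus 9cRA was -1.04 (95% interval -1.26 to -0.83, adjusted p = 0.013). The progesterone receptor gene PGR was at -5.21 ± 0.18 with 9cRA and entered the test through that group alone. Its signals with ATRA (-8.03 ± 0.16), at day 0 (-7.19) and in the day 6 control (-7.19) did not stand well above background. The size of its difference between the compounds is therefore uncertain. A further 5 genes belong to sterol or fatty acid synthesis, and in each the mean was lower with ATRA than with 9cRA: SCD, a fatty acid desaturase (-0.51), HMGCS1 (-0.43), INSIG1 (-0.42), FADS2 (-0.41) and NSDHL (-0.34). These genes are named because they passed the test, after their values were seen. The retinoid arrays are pooled below, with ATRA and 9cRA weighted equally.

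Among named genes well above background on all day 0 and retinoid arrays, the 3 largest increases were those of 2 metallothioneins, small proteins that bind zinc and copper, and of ANGPTL4. MT1A (probe on chromosome 18, 24106877 to 24106936, minus strand, build UMD3.1) was at -1.69, -1.67 and -1.91 on the day 0 arrays and 7.27 to 7.42 (median 7.33) on the retinoid arrays. The day 6 control was at 2.54 ± 0.19 (SD, n = 3), between the 2 states and overlapping neither. The increase over day 0 was 9.09 ± 0.08 (SE), or 546-fold (adjusted p = 2.1e-13), and retinoid arrays also exceeded the day 6 control by 4.79 (adjusted p = 7.3e-11). MT2A rose by 8.70 ± 0.07, but 1 of its 2 other probes differed by 0.03. The 2 leading probes share no run of more than 5 bases. This compares probe with probe only, and whether either probe also matches the other gene's transcript was not tested. ANGPTL4, a secreted inhibitor of lipoprotein lipase (chromosome 7, 18243511 to 18243570), went from -4.23, -4.13 and -4.36 on the day 0 arrays to 4.41 to 4.63 (median 4.58), an increase of 8.78 ± 0.07, against 7.13 in the day 6 control.

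The other leading increases fell into genes that the day 6 control shared and genes that it did not. SLC16A3, a lactate exporter, rose by 6.93 with retinoid and by 7.85 in the day 6 control, SFRP1, a secreted Wnt antagonist, by 6.19 and 5.73, and TMEM59L by 6.17 and 5.38. Other probes of these genes against day 0 gave 2.30 to 6.26 for SLC16A3 (3 probes) and 0.66 to 3.75 for TMEM59L (3 probes), so the size is uncertain for both. CHI3L1, a secreted chitinase-like protein, rose by 5.92 with retinoid and 3.33 without. By contrast DTX1, a regulator of Notch signalling (chromosome 17, 63396087 to 63396146), was at -5.19, -5.52 and -5.90 on the day 0 arrays and 1.50 to 1.99 (median 1.89) on the retinoid arrays, while the day 6 control was at -5.58 ± 1.55, well above background on 1 of 3 arrays. Its increase over day 0 was 7.39 ± 0.51 (adjusted p = 3.3e-07), over the day 6 control 7.43 (adjusted p = 8.5e-07), and its other 2 probes gave 2.31 and 4.43. TF, the iron carrier transferrin (chromosome 1, 136683507 to 136683566), was at -3.59, -3.96 and -4.55 at day 0 and 2.31 to 2.52 (median 2.41) with retinoid, an increase of 6.46 ± 0.20, against a day 6 control at -3.62 ± 0.35, and its other 5 probes gave 3.87 to 7.14. PLEKHB1 rose by 5.62 ± 0.08, against 1.32 in the day 6 control, and its second probe gave 1.76.

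Among the largest decreases, 3 of the 10 were contractile genes of smooth muscle. ACTA2, smooth muscle alpha-actin (chromosome 26, 10662446 to 10662505), was at 7.81, 7.81 and 7.82 on the day 0 arrays and 2.66 to 3.09 (median 2.91) on the retinoid arrays. It fell by 4.91 ± 0.09, or 30.1-fold (adjusted p = 2.7e-11), whereas the day 6 control stood at 6.73 ± 0.13. ACTG2, smooth muscle gamma-actin, fell by 4.14 ± 0.07 with a day 6 control -0.46 from day 0, and LMOD1, which nucleates actin filaments, fell by 3.82 ± 0.09. LGI2, a secreted leucine-rich repeat protein, had the largest decrease among the genes named here that were well above background on all 9 arrays. It was at 1.63, 1.57 and 2.13 at day 0 and then -5.52 to -5.03 (median -5.22), and fell by 7.02 ± 0.12. WFDC1, a secreted protein with a WAP domain, fell by 6.22, the chemokine CCL26 by 6.18, GREM1, a secreted BMP antagonist, by 5.14 and HNMT, which inactivates histamine, by 3.86. In MYL4, a myosin light chain, the day 6 control was low as well: MYL4 fell by 4.40, and the day 6 control differed from day 0 by -4.64.

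**Figure D1:**
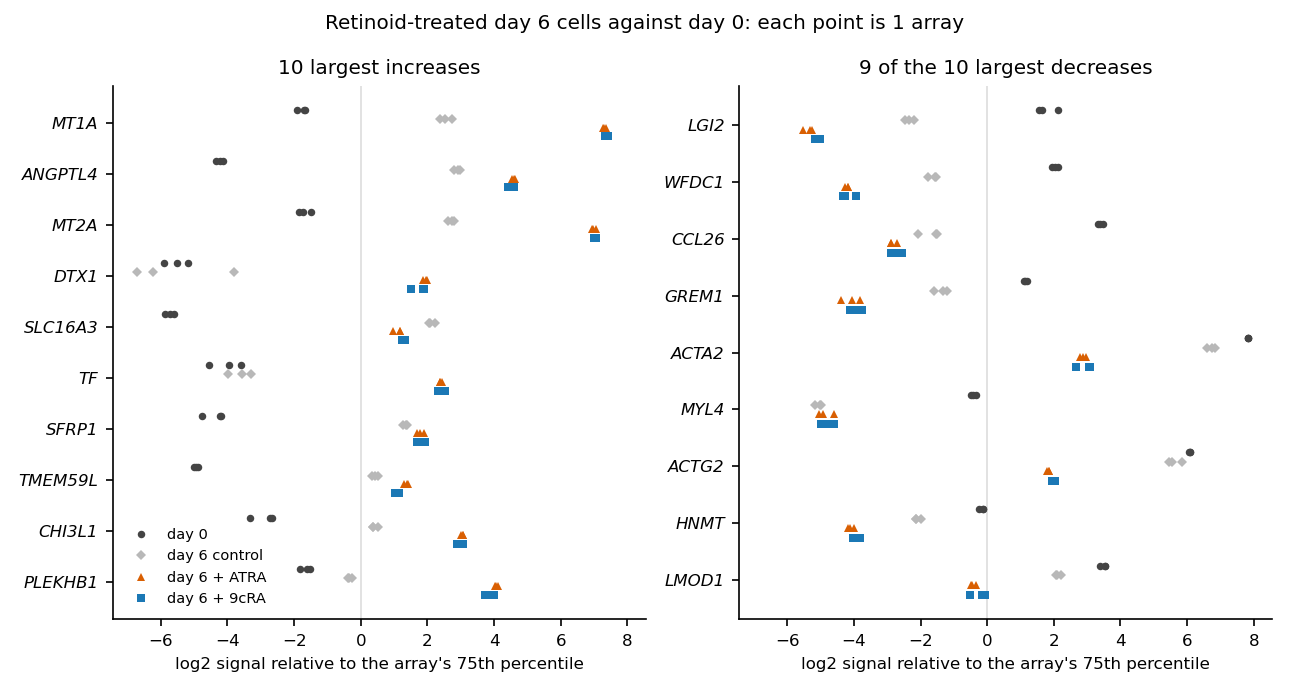
Log2 signal relative to the array's 75th percentile (x axis) of the 10 largest increases and 9 of the 10 largest decreases from day 0, with 1 point per array (3 arrays per group). Retinoid arrays do not overlap day 0 arrays in any row, by the rule that chose these genes, while the day 6 control (grey) lies with the retinoid arrays for MYL4, with day 0 for TF and near day 0 for ACTG2.

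Genes that were not well above background on any day 0 array have only a lower bound. A2M, a broad protease inhibitor of plasma (chromosome 5, 101341122 to 101341331), had signals of -7.64, -7.84 and -7.06 on the day 0 arrays, none of them well above background, and 6.22 to 6.46 (median 6.32) on the retinoid arrays. It was at least 5529-fold higher (adjusted p = 6.9e-13), and the day 6 control was at 0.23 ± 0.14. M-SAA3.2, which codes for a form of serum amyloid A, was at least 1667-fold higher, the membrane-bound chemokine CX3CL1 at least 269-fold and STC1, the hormone stanniocalcin, at least 206-fold. These 3 also stood well above background in the day 6 control, at 3.38 ± 0.01, 0.88 ± 0.22 and -0.38 ± 0.13. In the other direction APLNR, the apelin receptor, was at least 41.9-fold lower, ACKR4, a scavenging chemokine receptor, at least 29.2-fold, MLPH, which links melanosomes to myosin, at least 27.5-fold and TYRP1, a melanin enzyme, at least 23.2-fold.

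Some genes moved from day 0 with retinoid although 6 days in the medium alone left them within 0.3 of their day 0 mean. DHRS3, which reduces retinal to retinol (chromosome 16, 42002077 to 42002136), was at 0.94, 0.98 and 0.71 on the day 0 arrays, 0.91 ± 0.16 in the day 6 control and 5.04 to 5.28 (median 5.20) on the retinoid arrays. It rose by 4.31 ± 0.08 over day 0 (19.8-fold, adjusted p = 2.9e-11) and by 4.27 over the day 6 control (adjusted p = 1.6e-10). ISG12(B), an interferon-inducible gene, went from 2.34, 2.37 and 2.25 at day 0 to levels of 6.44 to 6.65 (median 6.56) and rose by 4.22 ± 0.07. PRXL2A, a thioredoxin-like protein, rose by 3.95 ± 0.09 and FAM20A, a secretory pathway pseudokinase, by 3.19 ± 0.08. Lower in the same way were ASPN, a small matrix proteoglycan, by -3.12 ± 0.09, and TAGLN, the smooth muscle actin-binding protein transgelin. TAGLN was at 4.74, 4.83 and 4.90 on the day 0 arrays, 4.78 ± 0.22 in the day 6 control and 1.62 to 1.85 (median 1.71) on the retinoid arrays, and fell by 3.09 ± 0.09 (adjusted p = 4.8e-10).

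Other genes were chosen because they moved in the medium alone while the retinoid mean lay within 0.3 of day 0. RTP4, an interferon-inducible chaperone of receptors, was at 3.48, 3.57 and 3.52 on the day 0 arrays and 3.51 to 3.65 (median 3.58) on the retinoid arrays, which overlapped, and at 0.86 ± 0.11 in the day 6 control. Its retinoid minus day 0 difference was 0.06 (95% interval -0.07 to 0.18), against 2.72 over the day 6 control (adjusted p = 1.7e-10). Its second probe differed from day 0 by -0.29, which passed, and with quantile normalization the difference was 0.21 and passed (adjusted p = 0.00347). GLI1, the Hedgehog pathway transcription factor, was at -2.77, -2.81 and -2.74 at day 0, -3.12 to -2.78 (median -3.03) with retinoid and, in the day 6 control, -0.62 ± 0.19. Its difference from day 0 was -0.22 (95% interval -0.44 to -0.01) and from the day 6 control -2.38, and it passed the test against day 0 in several alternatives, at -0.36 with quantile normalization. The same pattern was taken for SYBU, which tethers vesicles to microtubules (day 6 control minus day 0 2.55, retinoid minus day 0 0.16), the neuropeptide precursor NTS (2.38 and 0.22), GGCT, an enzyme of glutathione turnover (2.20 and -0.03), and SLC6A2, a noradrenaline transporter (2.08 and 0.02). The value of SLC6A2 holds for its chosen probe, since its second probe differed from day 0 by -0.81, which passed, and the mean over its probes by -0.39 (adjusted p = 0.0221). SYBU also passed as the mean of its probes, at 0.39 (adjusted p = 0.0023), and without day 0 array 2, at 0.24 (adjusted p = 0.0379), and NTS without 9cRA array 1, at 0.30 (adjusted p = 0.023).

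**Figure D2:**
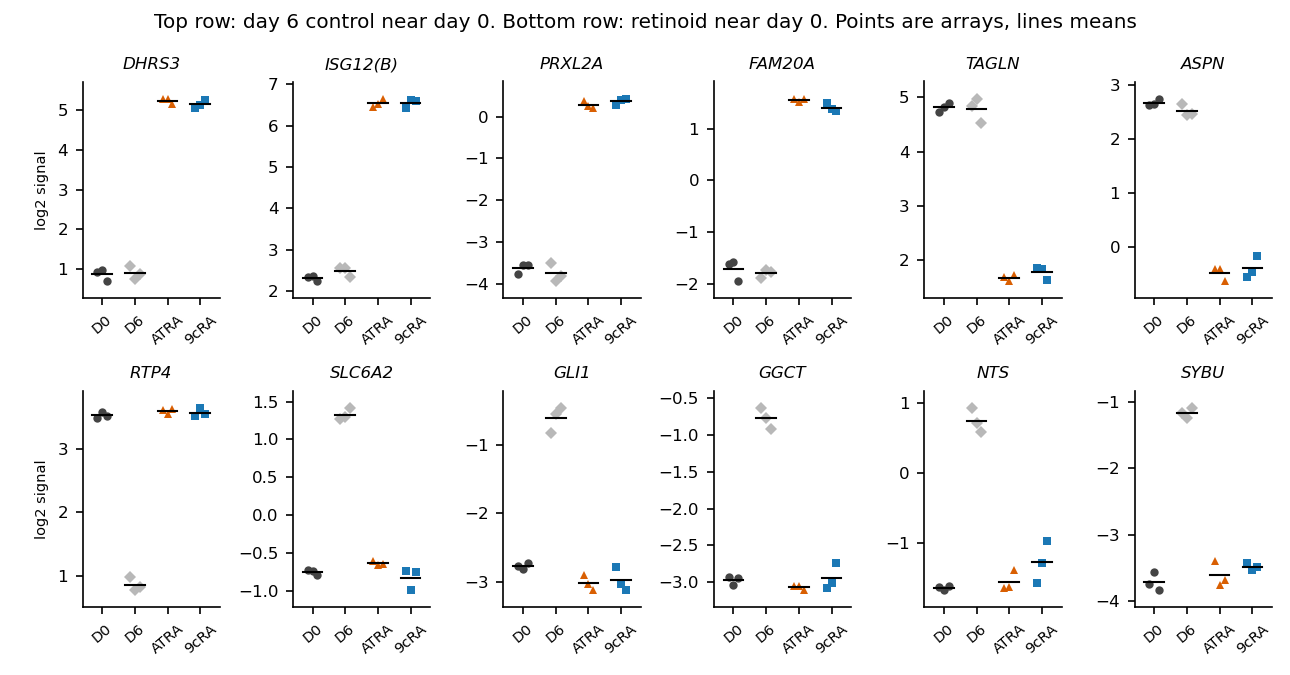
Log2 signal relative to the array's 75th percentile (y axis, with a scale of its own in each panel) in the 4 groups, with 1 point per array and a line at the mean of 3 arrays. The top row holds genes whose day 6 control mean lies within 0.3 of day 0 and whose retinoid mean lies 3.09 to 4.31 away. The bottom row holds genes whose retinoid mean lies within 0.3 of day 0.

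Retinoid carriers, enzymes and receptors moved in both directions. Of 19 tested genes of retinoid metabolism, 10 were higher and 5 lower than at day 0, with a median of 0.38. The median was 0.25 for ATRA and 0.26 for 9cRA taken alone. It was 0.12 for genes well above background on all arrays and 0.17 with slide as a fixed block. CRABP1, a cellular carrier of retinoic acid (chromosome 21, 31265174 to 31265233), was at 2.50, 2.59 and 2.49 on the day 0 arrays and 5.84 to 6.06 (median 6.01) on the retinoid arrays, and it rose by 3.45 ± 0.12 (adjusted p = 1.2e-09). The day 6 control lay on the other side of day 0, at 0.83 ± 0.32. RDH10, which oxidises retinol to retinal, fell by 2.28 ± 0.06. CRABP2, the other carrier of retinoic acid, differed by -0.16 (adjusted p = 0.15), and by -0.29 with an adjusted p of 0.0188 under median scaling. CYP26A1, the hydroxylase that degrades retinoic acid, was at -4.54, -4.55 and -4.21 on the day 0 arrays and -3.95 to -3.35 (median -3.67) on the retinoid arrays, which did not overlap. Its difference of 0.76 ± 0.40 did not pass the test in the fit over 12 arrays (adjusted p = 0.11), passed with only the 9 arrays compared (adjusted p = 0.00142), and its second probe differed by 1.01. The day 6 control was at -6.99 ± 1.20, not well above background on any array. CYP26B1, a second hydroxylase of this family, was not well above background at day 0 and was at least 2.07-fold higher (adjusted p = 0.001, but 0.298 with slide as a fixed block).

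Of 28 tested receptors and known target genes, 18 were higher and 4 lower, with a median of 0.44. RARG, an RAR, was at 1.00, 1.11 and 1.00 at day 0 and 1.54 to 1.80 (median 1.67) with retinoid, rose by 0.64 ± 0.05 over day 0 and exceeded the day 6 control, which had gone to 0.05 ± 0.08, by 1.62. RARA was at -3.28, -2.60 and -3.25 at day 0 and -3.55 to -3.40 (median -3.46) with retinoid. Its difference was -0.42 (adjusted p = 0.018): without day 0 array 2 it was -0.20 (adjusted p = 0.0525), and it was also -0.20 with slide as a fixed block (adjusted p = 0.648). RARRES1, named for its response to retinoids, went from 0.22, 0.30 and 0.29 at day 0 to levels of 5.42 to 5.55 (median 5.45) and rose by 5.20 ± 0.06. The day 6 control was higher still, by 5.97 over day 0. ABCA1, which exports cholesterol, rose by 2.99 ± 0.11 and TNFAIP2 by 1.94 ± 0.09. Among members of these 2 lists named after their values were seen, the retinol receptor STRA6 rose by 1.77 where the day 6 control fell by 3.31, and RXRA rose by 0.94.

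HOX genes, which set positional identity along the body axis and include known retinoid targets, were mostly higher. Of 25 tested, 18 were higher and 2 lower, 10 of the 18 by at least 2-fold, and the median was 0.80 against 0.22 in the day 6 control. HOXA9 was at 0.44, 0.41 and 0.42 on the day 0 arrays and 1.89 to 2.19 (median 2.05) on the retinoid arrays, and rose by 1.61 ± 0.06 (adjusted p = 2.0e-09). HOXA4 rose by 1.56 ± 0.05, HOXB8 by 1.27 ± 0.05 and HOXA10 by 1.05 ± 0.04, and none of the 4 overlapped day 0. The 2 decreases, named after their values were seen, were those of HOXD9 by -0.44 and HOXB7 by -0.39. Also named in this way, HOXA3 had the largest increase among members well above background at day 0, 2.41. The median of the list was 0.44 with normexp background correction and 0.49 with slide as a fixed block.

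The regulators of fat cell formation rose in part, while FABP4 did not. Of 26 tested adipogenic transcription factors, 14 were higher and 8 lower, with a median of 0.32. PPARG (chromosome 22, 57367139 to 57367198) was at -2.32, -2.28 and -2.41 on the day 0 arrays and -0.55 to -0.39 (median -0.50) on the retinoid arrays, and rose by 1.85 ± 0.06 (3.61-fold, adjusted p = 1.1e-09). The day 6 control stood at -0.52 ± 0.12, and retinoid minus day 6 control was 0.04 (95% interval -0.10 to 0.17). FABP4, the fatty acid carrier of adipocytes (chromosome 14, 46833756 to 46833815), was at 1.92, 1.89 and 1.95 on the day 0 arrays, 6.26 ± 0.17 in the day 6 control and 1.30 to 1.84 (median 1.40) on the retinoid arrays. Retinoid arrays thus lay just below day 0, by -0.44 ± 0.09 (adjusted p = 0.0012), a difference of -0.16 with slide as a fixed block (adjusted p = 0.528), and -4.79 from the day 6 control (adjusted p = 1.2e-10). CEBPA was at 4.79, 4.89 and 4.69 at day 0 and 4.84 to 5.05 (median 5.01) with retinoid, which overlapped, and its difference of 0.20 (adjusted p = 0.023) did not pass in 7 alternatives, among them slide as a fixed block (0.14, adjusted p = 0.545) and the fits without day 0 array 1 (0.20, adjusted p = 0.0579) or 3 (0.15, adjusted p = 0.114). Its second probe differed by 1.62. CEBPD, an early factor of the cascade, rose by 1.67 ± 0.04 and ZBTB16, a glucocorticoid-induced zinc finger factor, by 2.95 ± 0.07. KLF4 fell by 1.79 ± 0.05 and TRIB3, a pseudokinase that restrains insulin signalling, by 2.55 ± 0.07.

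**Figure D3:**
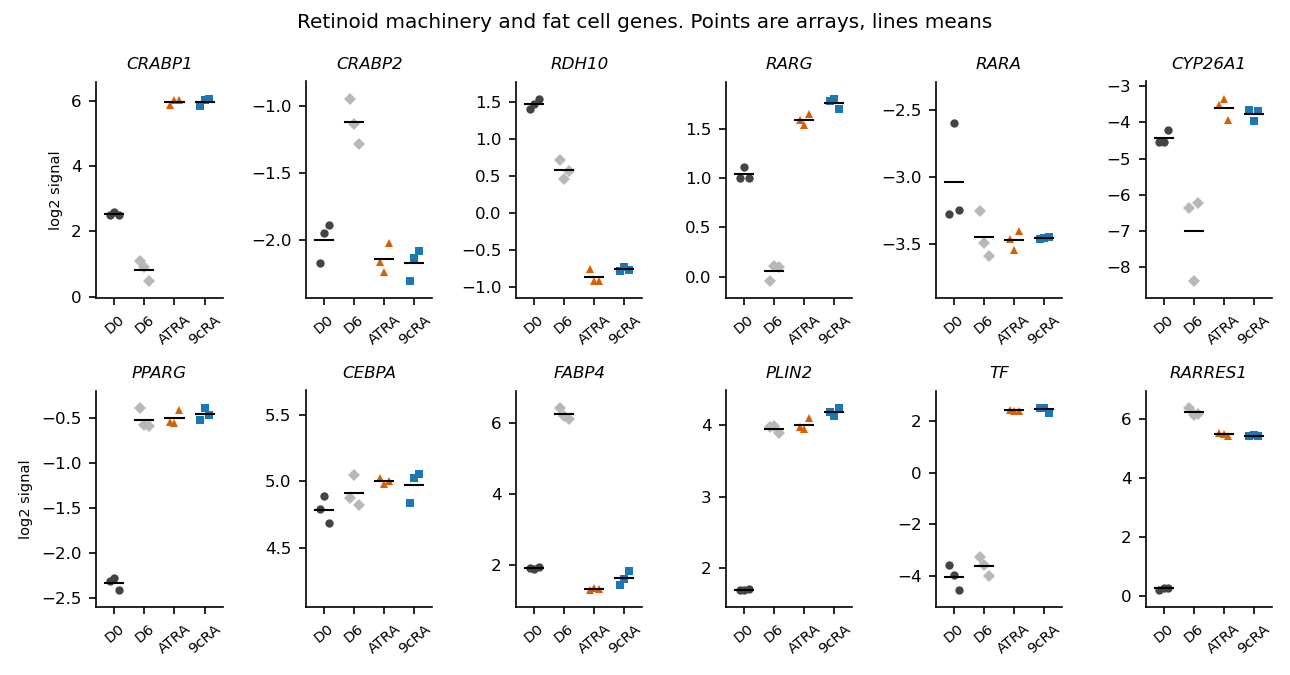
Log2 signal relative to the array's 75th percentile (y axis, with a scale of its own in each panel) for genes of retinoid handling and fat cell formation in the 4 groups, with 1 point per array and a line at the mean of 3 arrays. CRABP1 and TF are highest with retinoid, PPARG and PLIN2 are high in all day 6 groups, and FABP4 is high in the day 6 control, at 6.26 ± 0.17, while retinoid arrays lie just below day 0.

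Genes of lipid storage and adipocyte products went both ways, 14 higher and 11 lower of 35 tested. Their median of 0.12 turned to -0.01 under median scaling and -0.11 with slide as a fixed block. DGAT2, which makes triacylglycerol, was not well above background at day 0, was at -3.08 to -2.83 (median -2.89) on the retinoid arrays and was at least 9.13-fold higher. GPAT3, which starts glycerolipid synthesis, was at -0.72, -0.76 and -0.64 at day 0 and 2.77 to 3.08 (median 2.88) with retinoid and rose by 3.60 ± 0.06, and PLIN2, a lipid droplet coat protein, rose by 2.40 ± 0.05 where the day 6 control rose by 2.25. CIDEC, a droplet protein of fat cells, was at -1.95, -1.82 and -1.84 on the day 0 arrays and -5.49 to -4.97 (median -5.33) on the retinoid arrays, and fell by 3.39 ± 0.09. ADIPOQ, the fat cell hormone adiponectin, was not well above background on all arrays of any group and was not tested.

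Genes that make fatty acids were mostly lower, 16 of 24 against 3 higher, with a median of -0.67 and -0.31 in the day 6 control. ELOVL6, which elongates palmitate, was at 1.29, 1.27 and 1.28 on the day 0 arrays and -0.82 to -0.45 (median -0.65) on the retinoid arrays, and fell by 1.93 ± 0.06 (adjusted p = 5.8e-10). The desaturase genes FADS2 and FADS3 fell by 1.79 ± 0.05 and 1.52 ± 0.05. SCD5, a second stearoyl-CoA desaturase, ran the other way and rose by 1.77 ± 0.04, as in the day 6 control (1.81). Fatty acid oxidation and PPAR target genes were split, 13 higher and 11 lower of 31, with a median of 0.03 that turned to -0.10 under median scaling. BDH1 and OXCT1, enzymes of ketone body use, fell by 2.93 ± 0.06 and 1.94 ± 0.07. TXNIP, which binds thioredoxin and limits glucose uptake, rose by 2.85 ± 0.09, as did ANGPTL4 above.

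Cholesterol synthesis and uptake genes were lower as a group. Of 26 tested, 23 were lower, 18 of them by at least 2-fold, and 1 was higher, with a median of -1.88 against -1.42 in the day 6 control. HMGCS1, which makes the HMG-CoA of the pathway, was at 3.75, 3.57 and 3.66 on the day 0 arrays and 0.06 to 0.51 (median 0.30) on the retinoid arrays. It fell by 3.37 ± 0.05 (10.3-fold, adjusted p = 6.2e-12), with a day 6 control at 1.07 ± 0.10. ACAT2, the thiolase at the head of the pathway, fell by 3.22 ± 0.07, INSIG1, which retains the sterol sensor in the endoplasmic reticulum, by 2.34 ± 0.05, and the sterol dehydrogenase NSDHL by 1.91 ± 0.04. The single higher member was SREBF2, the transcription factor of the pathway, by 0.34, named after its value was seen.

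**Figure D4:**
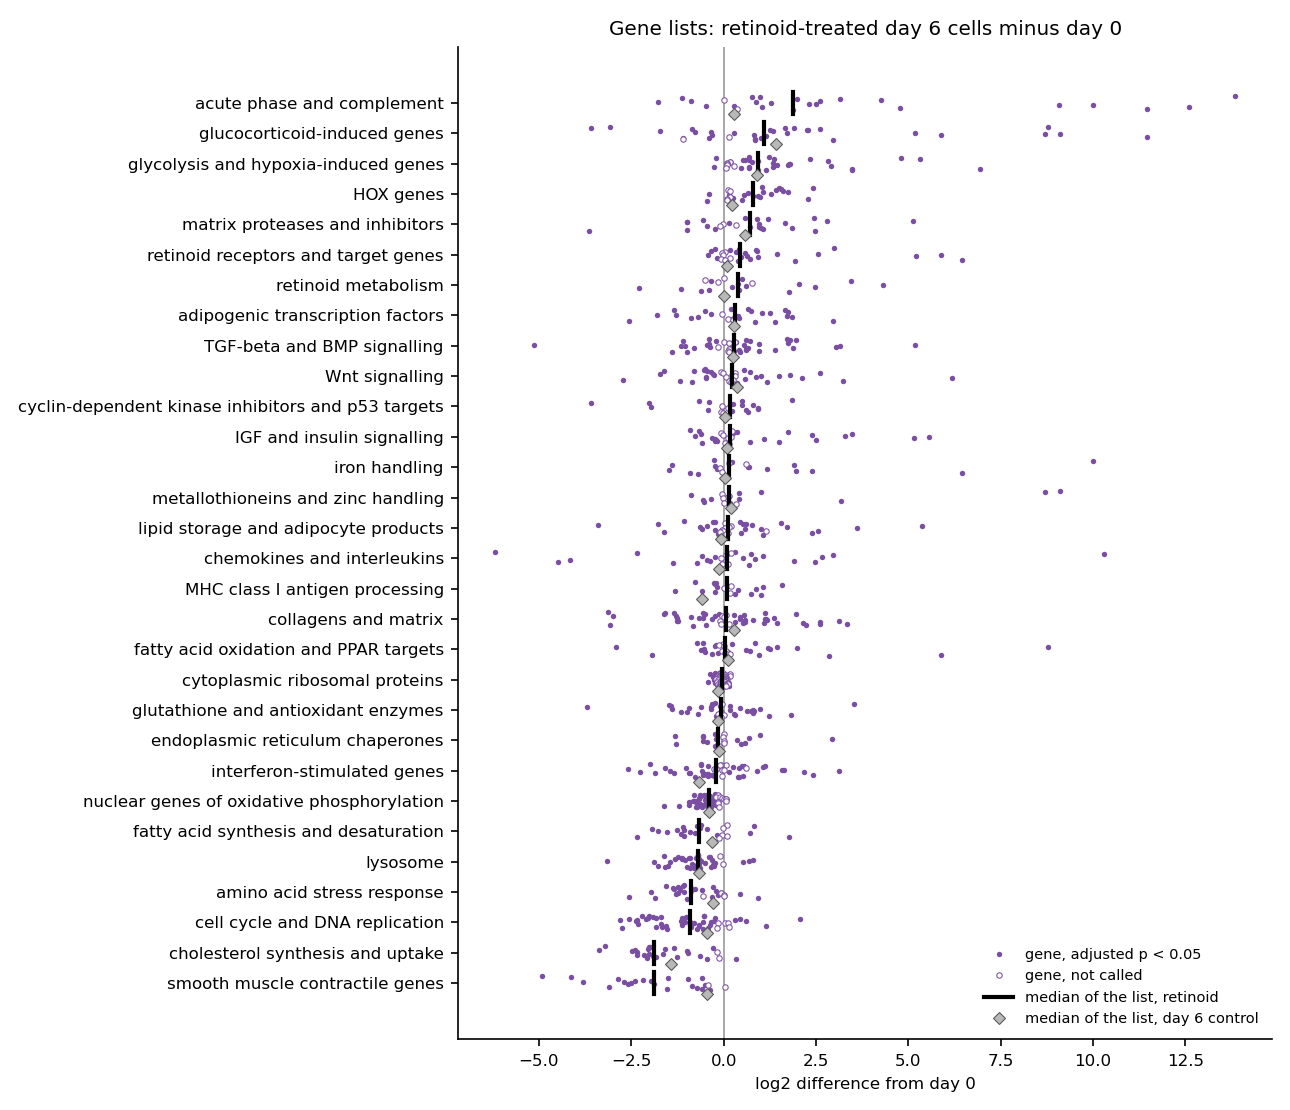
Log2 difference of retinoid-treated day 6 cells from day 0 (x axis) for each tested gene of 30 lists, filled where called and open where not, with a black bar at the list's median and a grey diamond at the median of the same genes in the day 6 control. The smooth muscle list has a median of -1.88 with retinoid and -0.46 in the day 6 control, the acute phase list 1.89 and 0.28, and the hypoxia list 0.92 and 0.91.

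Glycolytic and hypoxia-induced genes were higher in 27 of 36 and lower in 2, with a median of 0.92 and 0.91 in the day 6 control. CA9, a carbonic anhydrase induced by low oxygen, was at -4.57, -4.59 and -4.38 on the day 0 arrays and 0.70 to 0.93 (median 0.80) on the retinoid arrays, and rose by 5.32 ± 0.06 (adjusted p = 1.3e-12). ANKRD37 rose by 4.79 ± 0.07 and the glucose transporter SLC2A1 by 3.46 ± 0.06, close to their day 6 control differences of 4.74 and 3.69. Nuclear genes of oxidative phosphorylation were lower in 48 of 59 while 11 were not called, and the median was -0.40. A decrease of 2-fold or more was reached by 2 of the 48, the succinate dehydrogenase subunits SDHA, from 5.87, 5.91 and 5.85 at day 0 to levels of 4.56 to 4.72 (median 4.69) (-1.21 ± 0.06), and SDHB (-1.63 ± 0.10). The complex I subunits NDUFV1 and NDUFA9 fell by 0.93 and 0.74. The median was -0.22 under quantile normalization and -0.18 with slide as a fixed block.

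Probes for the mitochondrial genome, tested in a fit over 31205 probes, differed by strand. The forward strand carries the ribosomal RNA genes and most protein genes, whose products are subunits of the respiratory chain, and ND6, a subunit of complex I, is the protein gene of the reverse strand. The shares of all genes given above come from another fit, and those of all 31205 probes are not given here. Several probes read the same gene, such as 5 for CYTB, so the probe counts below are not counts of genes. Of 36 forward probes, 34 were lower with retinoid than at day 0 and 2 were not called, with a median of -2.04 (-3.07 in the day 6 control). The 26 probes of protein genes were all lower, between -3.63 and -0.80 with a median of -2.61, and the 10 in the ribosomal RNA part had a median of -0.73. Of 16 reverse probes 12 were higher and 4 were not called, but only 8 were well above background on all day 0 and retinoid arrays, and 5 of those 8 were higher. The array probes for ND4 and ND6, which stand for protein genes of the 2 strands, and a pair of probes that overlap on opposite strands in the ribosomal RNA part are shown with their positions on UMD3.1. Capitals mark the 27 bases by which the pair is complementary, and probes are given 5′ to 3′ as the files give them.
ND4 forward, chrM:11219-11278: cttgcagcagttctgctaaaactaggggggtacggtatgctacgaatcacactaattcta
ND6 reverse, chrM:13950-14009: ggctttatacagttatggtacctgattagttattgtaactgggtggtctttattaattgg
Ribosomal part forward, chrM:2124-2183: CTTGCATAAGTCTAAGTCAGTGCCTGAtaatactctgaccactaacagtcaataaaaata
Ribosomal part reverse, chrM:2094-2150: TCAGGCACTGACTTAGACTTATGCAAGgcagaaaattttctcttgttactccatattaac
The ND4 probe was at 5.45, 5.54 and 5.51 on the day 0 arrays, at 2.14, 1.98 and 2.12 with ATRA and at 1.64, 1.71 and 1.65 with 9cRA. It fell by 3.63 ± 0.08 (adjusted p = 7.8e-11), and the day 6 control was lower still at 0.85 ± 0.22. The 9cRA arrays lay below the ATRA arrays, a difference that did not pass (adjusted p = 0.18). The ND6 probe was at -0.06, -0.35 and -0.39 at day 0, at 3.34, 3.45 and 3.47 with ATRA and at 3.65, 3.74 and 3.74 with 9cRA. It rose by 3.83 ± 0.07 (adjusted p = 2.1e-11), and the day 6 control exceeded day 0 by 3.47, so ND4 was lower and ND6 higher than at day 0 on every retinoid array. In the overlapping pair, the forward probe went from 7.29 ± 0.05 (day 0) to 6.42 ± 0.05 (ATRA) and 6.39 ± 0.10 (9cRA), while the reverse probe was not well above background at day 0. The RNA had been copied from a poly-dT primer.

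**Figure D5:**
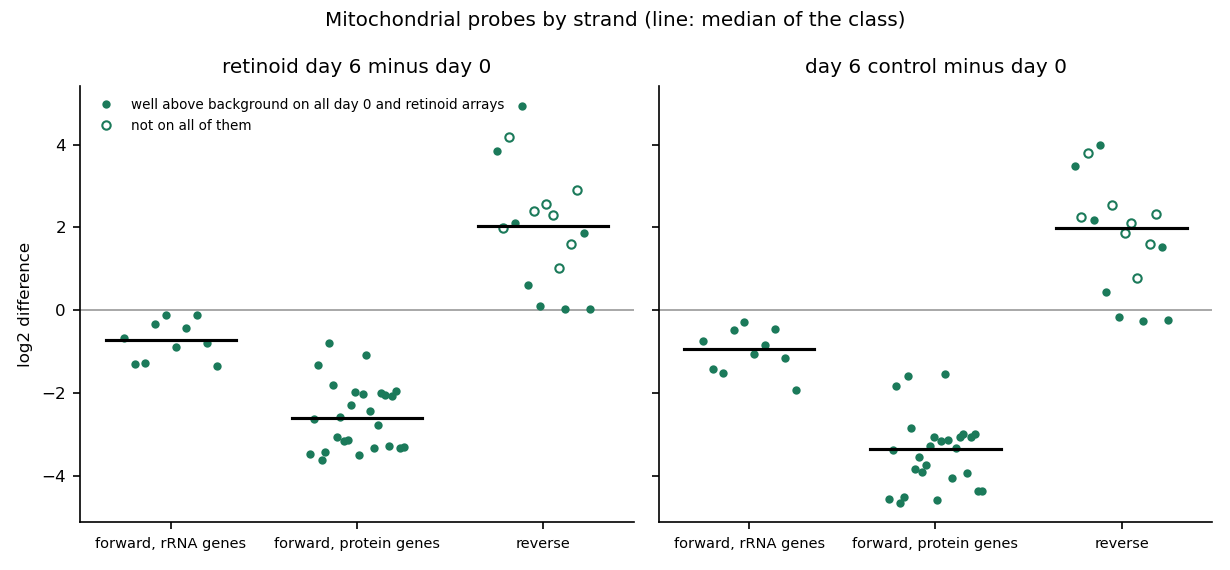
Log2 difference from day 0 (y axis) of each mitochondrial probe for retinoid-treated cells and for the day 6 control, by strand and kind of gene, with a line at the median of the class. Forward probes of protein genes lie between -3.63 and -0.80 with retinoid, while reverse probes lie between 0.03 and 4.94. Open points were not well above background on all day 0 and retinoid arrays.

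Genes known to be induced by glucocorticoids, which the medium contained from the start, were higher in 22 of 33 and lower in 9, with a median of 1.10 and 1.41 in the day 6 control. Besides MT1A, MT2A and ANGPTL4, the serum amyloid gene SAA3 was at -5.54, -5.63 and -6.53 on the day 0 arrays, 2 of them well above background, and 5.42 to 5.76 (median 5.57) on the retinoid arrays, and rose by 11.47 ± 0.19. Its other 5 probes gave 3.42 to 11.58, and its probe shares a run of 24 bases with that of M-SAA3.2, so the 2 genes may share signal. Members named after their values were seen show that the list did not move as one. FKBP5, a steroid receptor chaperone, rose by 2.29 with retinoid and 3.66 without, TSC22D3 by 0.84 and 3.41, and SGK1, a kinase, fell by 1.10. Of 18 genes of metallothioneins and zinc handling, 8 were higher and 4 lower (median 0.15), led by MT1A and MT2A. The zinc importer SLC39A14 was at 0.23, 0.16 and 0.22 at day 0 and 3.28 to 3.48 (median 3.40) with retinoid and rose by 3.18 ± 0.06, and the exporter SLC30A4 fell by 0.89 ± 0.05.

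Iron handling genes were higher in 10 of 21 and lower in 7 (median 0.16). CP, the ferroxidase ceruloplasmin, was well above background on only 1 of 3 day 0 arrays, at -6.38, -5.98 and -6.70, and was at 3.47 to 3.85 (median 3.66) on the retinoid arrays. It rose by 10.00 ± 0.13, with a day 6 control at -5.97 ± 0.08, and its other 3 probes gave 6.40 to 11.17. TF also rose, as described above. STEAP2, a metal reductase, rose by 1.97 ± 0.05 and HEPH, a membrane ferroxidase, by 1.89 ± 0.05, while the iron exporter SLC40A1 was at 3.29, 3.26 and 3.28 at day 0 and 1.74 to 1.90 (median 1.77) with retinoid and fell by 1.47 ± 0.04.

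Cell cycle and DNA replication genes were lower in 41 of 51 and higher in 5, 23 of the 41 by at least 2-fold. Their median was -0.90, against -0.46 in the day 6 control. CDK1, the kinase of mitotic entry, was at -2.54, -2.59 and -2.61 on the day 0 arrays and -5.16 to -4.63 (median -4.97) on the retinoid arrays, and fell by 2.38 ± 0.07 (adjusted p = 4.9e-10). PRC1, which organises the central spindle, fell by 1.67 ± 0.05 and TPX2, a spindle assembly factor, by 1.53 ± 0.05. CCND3, a G1 cyclin, ran against the list and rose by 2.06 ± 0.05, from 2.01, 2.03 and 1.98 at day 0 to levels of 3.94 to 4.13 (median 4.11). Inhibitors of cyclin-dependent kinases and p53 targets were 10 higher and 6 lower of 20. CDKN1C, well above background on 2 of the 3 9cRA arrays, was at -1.64, -1.54 and -1.73 at day 0 and -5.54 to -5.06 (median -5.14) with retinoid and fell by 3.59 ± 0.11, CDKN2B fell by 2.02 ± 0.06 and the stress sensor GADD45G by 1.96 ± 0.04, while the antiproliferative gene BTG1 rose by 1.84 ± 0.05. The cells were confluent at day 0, and in bulk RNA fewer cells of a kind and less RNA per cell cannot be told apart.

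Contractile genes of smooth muscle were lower in 21 of 23 while 2 were not called, 14 of the 21 by at least 2-fold. The median of -1.88 compares with -0.46 in the day 6 control, and the direct test of retinoid against the day 6 control had 20 of 23 lower and 1 higher, where 24.2% and 28.2% of all genes were. Besides ACTA2, ACTG2, LMOD1 and TAGLN, the actin-binding protein CNN1 was at 4.66, 4.67 and 4.73 on the day 0 arrays and 1.75 to 1.90 (median 1.84) on the retinoid arrays, and fell by 2.86 ± 0.05. The probes of ACTA2 and ACTG2 share no run of more than 6 bases, but a match of either probe to the other gene's transcript was not tested. The intermediate filament gene DES fell by 1.97 ± 0.05, while its 2 other probes gave 0.14 and 0.50. Pericyte markers, several of which are contractile genes, moved with this list in part, with 4 lower, 2 higher and 2 not called of 8 tested. Their summed linear signal, in units of the array's 75th percentile, was 303 to 309 at day 0, 149 to 164 in the day 6 control and 33.1 to 37.1 on the retinoid arrays, and ACTA2 and DES made up 96.6% of it at day 0. The defining marker RGS5 did not stand above background in any group, CSPG4 fell by 2.18 ± 0.08 (4 other probes -2.32 to -0.08) and ABCC9 was at least 2.65-fold higher. The part of pericytes in this result was not tested.

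Matrix genes went both ways. Of 49 collagen and matrix genes, 23 were higher and 20 lower, with a median of 0.06 that turned to -0.07 under median scaling and -0.08 with slide as a fixed block. SPP1, osteopontin, was at 2.54, 2.58 and 2.79 on the day 0 arrays and 5.88 to 6.08 (median 6.00) on the retinoid arrays, and rose by 3.35 ± 0.07 (adjusted p = 3.7e-11), with a day 6 control below day 0 at 1.78 ± 0.07. MGP, an inhibitor of calcification, rose by 3.11 ± 0.06 from 4.08, 4.09 and 4.26, and THBS2, a thrombospondin, by 2.23 ± 0.06. SPP1 and MGP are also osteochondral markers, a list with 5 higher, 2 lower and 3 not called of 10 tested (median 0.15, or -0.25 with slide as a fixed block). Its summed signal was 26.3 to 29.9 at day 0 and 209 to 228 on the retinoid arrays, where SPP1 and MGP made up 98.3% of it. ALPL, alkaline phosphatase, was at least 4.97-fold higher, ACAN, the cartilage proteoglycan, fell by 3.79 ± 0.12, and IBSP, DMP1, PHEX and MEPE were above background nowhere in the 4 groups. Of 25 matrix proteases and inhibitors, 15 were higher and 7 lower, with a median of 0.70. MMP1, the interstitial collagenase, went from -4.37, -4.64 and -4.81 at day 0 to levels of 0.38 to 0.68 (median 0.50) and rose by 5.13 ± 0.11, ADAMTS9 rose by 2.80 and MMP19 by 1.65, while the inhibitor TIMP3 fell by 3.63 ± 0.11.

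Acute phase and complement genes were higher in 19 of 25, 15 of them by at least 2-fold, and lower in 4. Their median was 1.89 against 0.28 in the day 6 control, and against the day 6 control itself 16 of 25 were higher and 3 lower (28.2% and 24.2% of all genes). The list was led by A2M, M-SAA3.2, SAA3 and CP, described above, and by PTX3, a secreted pattern recognition protein. PTX3 was at -0.42, -0.34 and -0.40 on the day 0 arrays, 4.16 to 4.53 (median 4.42) on the retinoid arrays and 6.74 ± 0.06 in the day 6 control, so that its increase of 4.79 ± 0.06 was smaller than the 7.13 without retinoid. Members named after their values were seen include C3, the central complement component, which rose by 3.16 ± 0.10, CFI, which inactivates it, by 2.51 ± 0.16, and C4A by 1.98 ± 0.11. Each of these 3 lay within 1.2 of day 0 in the day 6 control, at 0.32, -0.25 and -1.12. Restricted to genes well above background on all arrays, the median of the list was 0.98.

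Interferon-stimulated genes were split, 17 higher and 23 lower of 49, with a median of -0.20. In the day 6 control 34 of 49 were lower (31.3% of all genes) with a median of -0.67, and the test of retinoid against the day 6 control had 32 higher and 4 lower (28.2% and 24.2% of all genes). IRF1, a transcription factor of the response, was at 1.33, 1.34 and 1.25 on the day 0 arrays, -0.72 ± 0.07 in the day 6 control and 2.85 to 2.92 (median 2.87) on the retinoid arrays. It rose by 1.57 ± 0.04 over day 0 and by 3.60 over the day 6 control (adjusted p = 1.6e-11). SAMHD1, which depletes nucleotides, rose by 2.42 ± 0.08. IFIT3 fell by 2.60 ± 0.06 (retinoid minus day 6 control 0.15), and OAS1Y, an oligoadenylate synthetase, fell by 1.85 ± 0.08. MHC class I antigen processing genes were 7 higher and 8 lower of 18. Their median of 0.08 turned to -0.05 under median scaling and -0.14 with slide as a fixed block. The peptide trimming enzyme ERAP2 was at 1.19, 1.15 and 1.15 at day 0 and 2.12 to 2.30 (median 2.22) with retinoid and rose by 1.06 ± 0.05, CD1D by 1.58, TAPBPL by 1.00 (its other 2 probes gave 0.03 and 1.15) and the peptide transporter TAP2 by 0.74. Against the day 6 control 15 of 18 were higher (28.2% of all genes) and 3 were not called.

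Chemokines and interleukins were 11 higher and 10 lower of 26, with a median of 0.09 that turned to -0.11 under quantile normalization and -0.22 with slide as a fixed block. IL33, an alarmin, was at -3.57, -3.47 and -3.57 at day 0 and -1.26 to -0.92 (median -1.03) with retinoid and rose by 2.46 ± 0.06. IL15, a cytokine of lymphocytes, was well above background on all day 0 arrays and on no retinoid array, and was at least 4.23-fold lower. In Wnt signalling, 14 were higher and 14 lower of 38. The list's median, 0.21, became -0.09 in the fit with a fixed slide block. SFRP1 led, the receptor FZD4 rose by 2.60 ± 0.06 (4 other probes 0.67 to 2.78), the antagonist SFRP2 by 2.12 and NKD2 by 1.02. TGF-beta and BMP genes were 23 higher and 12 lower of 43 (median 0.29). ID1, a BMP target that blocks helix-loop-helix factors, was at -0.88, -1.11 and -1.40 at day 0 and 3.85 to 4.22 (median 4.07) with retinoid and rose by 5.18 ± 0.11, the receptor ACVR2A by 1.72 and the BMP antagonist CHRDL1 by 1.74, whereas GREM1 fell as described above.

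IGF and insulin signalling genes were 13 higher and 10 lower of 30, and 9 of the 13 rose by at least 2-fold. Their median was 0.16, and -0.11 with slide as a fixed block. IGFBP3 and IGFBP5, secreted carriers of insulin-like growth factors, moved most. IGFBP3 was at 2.41, 2.45 and 2.15 on the day 0 arrays and 7.68 to 8.06 (median 7.90) on the retinoid arrays, and rose by 5.55 ± 0.09, and IGFBP5 rose by 5.15 ± 0.13. Their day 6 control minus day 0 differences were 3.73 and 2.81. IGF1 rose by 3.47 ± 0.13, like the day 6 control (3.36), and its other 2 probes gave 1.00 and 2.61. The chosen probe of IGF2 rose by 2.39 ± 0.09, but its 11 other tested probes ranged from -0.36 to 7.53, so the size for this gene is uncertain.

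Genes of the amino acid stress response were lower in 22 of 29 and higher in 2, with a median of -0.90 and -0.28 in the day 6 control. PSAT1, an enzyme of serine synthesis, was at 5.84, 5.93 and 6.06 on the day 0 arrays, 5.66 ± 0.09 in the day 6 control and 3.90 to 4.15 (median 3.93) on the retinoid arrays, and fell by 1.96 ± 0.06. The stress transcription factors DDIT3 and ATF3 fell by 1.35 ± 0.04 and 1.56 ± 0.05. Chaperones of the endoplasmic reticulum were 6 higher and 11 lower of 22 (median -0.15). HERPUD1, which acts in the disposal of misfolded proteins, stood out at 1.45, 1.51 and 1.50 on the day 0 arrays, 1.74 ± 0.05 in the day 6 control and 4.35 to 4.48 (median 4.43) on the retinoid arrays, an increase of 2.93 ± 0.04 (adjusted p = 5.3e-12). CRELD2 and SDF2L1 fell by 1.32 and 1.28, and the disulphide isomerase PDIA4 rose by 0.57.

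Lysosomal genes were lower in 38 of 43 and higher in 3, with a median of -0.69 and -0.68 in the day 6 control. CTSK, the collagen-degrading protease cathepsin K, was at 7.62, 7.71 and 7.63 on the day 0 arrays and 4.36 to 4.64 (median 4.46) on the retinoid arrays, and fell by 3.17 ± 0.09. The sialidase NEU1 fell by 1.77, the proton pump subunit ATP6V0D1 by 1.61 and the calcium channel MCOLN1 by 1.51. Glutathione and antioxidant genes were 14 higher and 16 lower of 36 (median -0.08). GPX3, a secreted peroxidase, rose by 3.53 ± 0.07 and the mitochondrial dismutase SOD2 by 1.82 ± 0.09, while the lipid peroxidase GPX4 fell by 1.48 ± 0.08 and GSTA2 was at least 7.48-fold lower. Cytoplasmic ribosomal proteins differed little, with 2 higher and 9 lower of 75 and a median of -0.03 (0.09 under quantile normalization). RPS15, RPL13, RPL28 and RPL7 had the smallest adjusted p, with differences of -0.42, -0.36, -0.30 and -0.26. None of these 4 passed with slide as a fixed block, where they differed by -0.06, -0.20, 0.04 and -0.18.

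The labelled cell type was checked against markers. Of 19 stromal and preadipocyte markers with a probe, 17 were well above background on all 3 arrays in each of the day 0, ATRA and 9cRA groups. Of 18 tested, 7 were higher and 11 lower than at day 0, with a median of -0.33 (0.11 in the day 6 control). Their summed signal was 1203 to 1220 at day 0, 1186 to 1271 in the day 6 control and 903 to 988 on the retinoid arrays. CD34 was not well above background at day 0 and was at least 2.65-fold higher with retinoid, PDGFRA, the growth factor receptor of preadipocytes, rose by 3.46 ± 0.05, THY1 fell by 1.47 ± 0.05 and S100A4 by 2.52 ± 0.09. PI16 and DPP4 were not well above background on any retinoid array. Of 10 mature adipocyte markers ADIPOQ and AQP7 were not well above background on any array, CFD fell by 1.78 ± 0.13, and of 7 tested 1 was higher, 4 lower and 2 not called. The summed signal of the list was 4.85 to 4.95 at day 0 and 3.1 to 4.34 on the retinoid arrays, against 70.3 to 88.0 in the day 6 control, where FABP4 alone made up 99.2% of it and the tested members were 2 higher and 2 lower of 7. CIDEA rose by 0.51 on its chosen probe, and the mean over its probes differed by -0.11.

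Markers of other cell types moved in both directions, and in most lists 1 or 2 genes gave most of the summed signal. Skeletal muscle markers, which a preparation from muscle could hold, were 5 higher, 5 lower and 3 not called of 13 tested (median 0.00, or -0.36 with slide as a fixed block). They summed to 75.4 to 80.3 at day 0 and 20.7 to 23.9 on the retinoid arrays, of which DES, whose probes disagree as given above, made up 90.2% and 80.7%. ACTA1, skeletal alpha-actin, fell by 2.97 ± 0.07, myoglobin (MB) fell by 2.77 ± 0.08, and the embryonic myosin MYH3 was at least 8.35-fold higher. The myogenic factors MYF5 and MYF6 were not well above background on any day 0 or retinoid array. Another myogenic factor, MYOD1, made up 2.63% of the skeletal muscle sum at day 0 and 12.7% with retinoid. That sum was lower with retinoid, so these shares do not give the change of MYOD1 itself. Endothelial markers were 7 higher, 2 lower and 3 not called of 12 tested (median 0.93). They summed to 2.78 to 2.86 at day 0 and 4.85 to 5.11 with retinoid, PECAM1 and ESAM were not well above background on any of these arrays, VWF rose by 1.76 ± 0.10, EGFL7 by 2.24 ± 0.08 (3 other probes 0.07 to 1.72), and CLEC14A was at least 13.6-fold lower. Leukocyte markers were 8 higher, 2 lower and 1 not called of 11 tested (median 0.37, or -0.03 with slide as a fixed block), and summed to 9.51 to 10.4 at day 0 and 14.6 to 15.97 with retinoid. CD14, a lipopolysaccharide co-receptor, rose by 4.21 ± 0.08 (2 other probes 1.17 and 2.70) and LAPTM5 was at least 4.31-fold lower. The B cell gene CD79A rose by 0.96, which became -0.08 with slide as a fixed block, and CD163, AIF1, ITGAM, CD3E and MS4A1 were not well above background on any array. The leukocyte sum was led by LYZ, CD3D and PTPRC, which gave 44.0%, 21.7% and 17.9% of it at day 0. With retinoid they gave 32.7%, 24.8% and 14.6% of a larger sum, so a smaller share does not mean a lower signal. Epithelial markers were 6 higher, 2 lower and 3 not called of 11 tested (median 0.20, or -0.41 with slide as a fixed block), summed to 5.41 to 6.21 at day 0 and 8.52 to 11.9 with retinoid, and ELF3 rose by 0.62. OCLN, a tight junction protein, was well above background on all day 0 arrays, on 2 of 3 ATRA arrays and on no 9cRA array. The keratins KRT19 and KRT8 differed by 0.91 and 0.86, or 0.08 and 0.66 with slide as a fixed block, where neither passed. Schwann and neural markers were 5 higher, 2 lower and 5 not called of 12 tested (median 0.24, or -0.04 with slide as a fixed block). Their sum, 25.8 to 26.9 at day 0 and 4.73 to 5.48 with retinoid, followed PMP22, which made up 92.5% of it at day 0. PMP22, a myelin protein also found in fibroblasts, fell by 3.21 ± 0.04, STMN2 was at least 3.68-fold higher, SNAP25 and NEFL differed by 0.88 and 0.53 (0.46 for both with slide as a fixed block, not passing), and SOX10 did not stand above background in any group. The part of these cell types in the results above was not tested.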

How the data were processed

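RNA (100 ng of total RNA per sample, copied from a poly-dT primer and labelled with Cy3) was hybridised to bovine 1-colour Agilent arrays, 3 per group. Per the file headers the authors extracted spot intensity with Feature Extraction 10.7.3.1, which subtracts background, and probe positions are on UMD3.1. The exon or UTR that a probe matches is not known here. The deposited table gives 1 log2 value per group and probe from the authors, with its scaling not stated. Its column medians were -0.01 to 0.02, its differences lay within a median of 0.003 of those computed here, and for 153 of 153 named genes they had the same sign.

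Control and outlier spots were left out (1417 control spots; 191 of 525636 probe spots). The log2 processed signal was scaled by subtracting each array's log2 75th percentile. Of 43653 probes, 28557 were named by RefSeq accession, 5115 by current symbol, 138 by an older symbol and 9843 kept the file's name. A gene was read from its probe with the highest mean and tested if, in 1 group or more, each of the 3 arrays had it well above background, as for 17622 of 25151 genes. Group means of the 12 arrays were fitted with limma 3.58.1 in R 4.3.3 (lmFit, eBayes), weighting ATRA and 9cRA equally. Genes were called at a Benjamini-Hochberg adjusted p under 0.05, two-sided. A bound sets the measured group's mean against a floor for the dim group, taken per array as its faintest signal still well above background or the dim probe's own signal, whichever was larger. Tested on simulated data for this comparison (17622 genes, 200 of them changed), the fit recovered 76.1% of genes changed by 1.5-fold, 94% by 2-fold and 100% by 4-fold, with 3 unchanged genes called. The simulated arrays held no slide effect, so these rates leave out the slide difference between day 0 and retinoid arrays. The simulated share of changed genes was also far below the 74.8% called in the data.

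The groups, 30 pathway lists and 9 marker lists were chosen with earlier results of these data known. Genes were named by rule: the 10 largest increases and decreases, the 4 largest bounds each way, the 6 largest changes with a day 6 control within 0.3 of day 0, the 6 largest day 6 control changes with a retinoid mean within 0.3 of day 0, up to 4 members of each list by adjusted p, and key genes of fat cells and retinoids. RARB was not analysed here, and some genes that the rule names are not reported here. The number of arrays limits the precision. The alternatives were other backgrounds, scalings, filters, probe rules and slide blocks, and leaving out each array.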

Additional observations from a re-analysis of the deposited data

Results flagged for a closer look

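In 4 genes 1 of the 6 retinoid arrays lay apart from the other retinoid arrays, by a gap that was more than 0.625 of the range of the 6. For arrays of a single group, chance gives about 1 such case in 20 genes examined. Genes named by any rule but list membership were all examined, so some such gaps can arise by chance. The 6 arrays also join ATRA and 9cRA and lie on slides 2 and 3. DTX1 was at 1.50 on 9cRA array 3, and its nearest other retinoid array was at 1.87. WFDC1 was at -3.92 on the same array, with the nearest at -4.17. GGCT was at -2.74 on that array, with the nearest at -3.01. CEBPA was at 4.84 on 9cRA array 1, with the nearest at 4.98.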

How the results depend on the processing

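The array files are numbered within each group, but the labels do not say that equal numbers belong together, so no paired analysis was made. The count of genes called against day 0 was 12363 to 13113 when single arrays were left out, 11507 with slide as a random block, 13582 with only the 9 arrays compared, and 8151 with slide as a fixed block (7496 of these were called in the same direction without it). That block also gave 7051 genes for 9cRA against day 0 and 5685 for retinoid against the day 6 control. Genes called and changed at least 2-fold numbered 2233 with normexp background correction. The count for ATRA against 9cRA was 34 with normexp, 32 with quantile normalization, 4 with no filter on dim probes, 40 with genes well above background on all arrays, 33 and 5 with slide as a fixed or random block, and 0 to 22 when single arrays were left out. RPL28 became 0.04 with the fixed block and 0.51 as the mean of its probes, CIDEA -0.11 as the mean of its probes, and CD79A -0.08 with the fixed block. The causes were not tested. Over named genes and alternatives, 3384 values kept their side of the threshold, 30 lost the call, 16 gained it and 4 turned sign. Direction was compared only for genes called in the main fit. Turns of sign in genes not called there, such as SLC6A2, are not among the 4. Where day 0 signal did not stand above background, depth of signal limits a value to a bound.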
